A study of Homo sapiens with 2 samples.

Results

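The miR-548 family is a group of primate miRNAs that arose from MADE1, a short inverted-repeat transposon. It was examined here in FaDu, a squamous carcinoma line of the hypopharynx that the labels write as FadU. Members were taken by name alone: every mature miRNA in the deposited tables whose name starts with miR-548, with any letter and either arm. That gave 72 of 2038 names. The series holds 2 libraries of small RNA. FadU parental cells were kept in RPMI-1640 with 10% fetal bovine serum. FadU sphere cells, described in the labels as sphere-derived cancer stem cells, were kept in DMEM-F12, for which no serum is stated, supplemented with N2 Plus, recombinant bFGF (10 ng/ml) and EGF (10 ng/ml). Both media held 1% penicillin-streptomycin, and medium and growth form changed together with the group. There was 1 library per group, so no difference below has a replicate check and no test between the conditions was possible.

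MADE1 copies are nearly palindromic, so that a transcript through 1 copy folds back into a hairpin of the kind that Drosha and Dicer cut. The mature miRNA is loaded into an Argonaute protein and pairs with target RNAs mainly through its seed, bases 2 to 8. Because the element was copied many times, the family has many genes with closely related sequences. In GENCODE release 29, 72 miRNA genes carry the MIR548 symbol, on 22 chromosomes and with 52 letters. Of these genes, 36 (50%) lie inside a protein-coding gene on its own strand, all in introns, against 52.5% of all 1881 annotated miRNA genes. Another 10 lie inside a protein-coding gene on the opposite strand and 26 lie outside protein-coding genes.

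RefSeq (GRCh38.p14) gave a mature sequence for 44 of the 72 names, matched by the exact name. Each sequence below is written 5′ to 3′ with the seed in capitals. The first set is shown because nearly all signal of the family lay on miR-548k, and the others are names that differ from it at few positions.
miR-548k: aAAAGUACuugcggauuuugcu
miR-548av-5p: aAAAGUACuugcggauuu
miR-548ab: aAAAGUAAuuguggauuuugcu
miR-548as-5p: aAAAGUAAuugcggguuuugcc
miR-548ar-5p: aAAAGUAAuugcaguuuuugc
miR-548ap-5p: aAAAGUAAuugcggucuuu
miR-548l: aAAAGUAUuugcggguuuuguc
miR-548at-5p: aAAAGUUAuugcgguuuuggcu
With positions counted from the 5′ end of miR-548k, miR-548av-5p matched all of its own 18 bases to the start of miR-548k. miR-548ab differed from miR-548k by C8A and C12U, and miR-548as-5p by C8A, A15G and U22C. Over its 21 bases miR-548ar-5p differed by C8A, G13A and A15U, and over its 19 bases miR-548ap-5p by C8A, A15U and U16C. Of the names with 4 such differences, the pair with the most parental reads is shown. Of these, miR-548l differed by C8U, A15G, C21U and U22C, and miR-548at-5p by A7U, C8A, A15U and U19G. The base at position 8 closes the seed, so of these relatives only miR-548av-5p keeps the seed AAAGUAC.

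The second set is shown for the 3p type of the family (the first pair) and for 2 members that resemble neither type in their seed.
miR-548ah-3p: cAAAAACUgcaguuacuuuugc
miR-548o-3p: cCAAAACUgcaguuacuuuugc
miR-548s: aUGGCCAAaacugcaguuauuuu
miR-548al: aACGGCAAugacuuuuguacca
The 44 names held 42 distinct sequences and 27 distinct seeds. The sequences of miR-548x-5p, miR-548g-5p and miR-548aj-5p were identical, and these 3 were at 0 in both libraries. The commonest seed was AAAGUAA, on 9 names, followed by AAAAACU on 5. AAAGUAC was on miR-548k and miR-548av-5p, and in the RefSeq table also on miR-8054, which is not among the names analysed. The 6 letters AAAGUA, searched on the miRNA strand, lay within the seed of 13 of the 44 (29.5%), against 0.13% of 2315 human mature miRNAs outside the family. The letters AAAACUG, typical of the 3p arms, occurred anywhere in 11 of the 44 (25%), against 0.13% outside it. The members were rich in A and U, with a median of 65% (45.5% to 81.0%), against 47.8% outside the family.

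The values were deposited as RPKM, reads per kilobase of miRNA and 1000000 reads. Low values fell on steps, and the commonest value, taken as 1 read on a miRNA of 22 bases, was 5.84 RPKM for parental cells and 8.07 RPKM for spheres. Estimated reads are RPKM divided by that value and adjusted for the RefSeq length where there is one. By this estimate, 4542489 reads lay on miRNAs in parental cells and 682359 in spheres. Where a name is at 0, as many as 3 reads remain possible, which correspond to 17.5 RPKM (parental) and 24.2 RPKM (spheres). The deposited columns summed to 26530004 and 5509071, and for comparisons both were brought to a sum of 1000000 (rescaled RPKM). Away from the floor, folds on the deposited scale lie lower than rescaled ones by 2.27 in log2. The epithelial markers checked were miR-200a-3p, miR-200b-3p, miR-200c-3p, miR-141-3p, miR-429, miR-205-5p and miR-203a. All 7 were above 0 in both libraries, with rescaled log2 folds from -0.30 to 3.70 (-2.57 to 1.43 as deposited), and reached a mean of 10 rescaled RPKM. Of the markers of other cell types, 1 of 5 blood (miR-486-5p), 2 of 2 endothelial (miR-126-3p and miR-126-5p), 1 of 3 fibroblast (miR-143-3p), 0 of 3 muscle and 0 of 1 liver markers reached that mean. Rescaled log2 folds were 0.84 for miR-126-3p, 1.29 for miR-126-5p, 1.34 for miR-143-3p and -1.84 for miR-486-5p. As deposited they were, in the same order, -1.42, -0.98, -0.91 and -4.11. The other blood markers, below a mean of 10 rescaled RPKM, mostly went the other way. In parental cells and spheres, miR-150-5p had 0 and 72.7 RPKM, miR-451a 11.7 and 32.3, and miR-142-3p 0 and 15.4. Only miR-223-3p fell, from 2.24 RPKM to 0. Each rested on 9 estimated reads or fewer. Of the other fibroblast markers, miR-145-5p had 0 and 7.72 RPKM. miR-199a-3p had 53.5 and 39.0 RPKM, a log2 fold of 1.59 after rescaling and -0.45 as deposited. Among muscle markers, miR-133a had 52.6 and 81.3 RPKM, miR-1 had 0 and 12.1, and miR-206 was at 0 in both, as was miR-122-5p of liver. The part of other cells in the results was not tested.

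The family was listed above 0 at a share near that of all names, mostly on fractions of a read. Of the 72 names, 34 were above 0 in the parental library (47.2%, against 44.3% of all names) and 28 in the sphere library (38.9%, against 33% of all names). Both libraries shared 25 of them (34.7%, against 29.6% of all names) and 35 were at 0 in both (48.6%, against 52.3%). Another 9 were above 0 only in parental cells (12.5%, against 14.7%), and miR-548q, miR-548ap-5p and miR-548d-3p, 3 in all, only in spheres (4.17%, against 3.39%). A value above 0 mostly stood for less than 1 estimated read. That was so for 24 of the 34 in parental cells (70.6%) and for 25 of the 28 in spheres (89.3%), against 14.7% and 18.6% of the detected names outside the family. At least 3 estimated reads were reached by 5 members in parental cells (6.94%, against 27.1% of all names) and by 2 in spheres (2.78%, against 17.1%). The median over members above 0 was 0.39 estimated reads for parental cells and 0.039 for spheres. Outside the family it was 7 and 3.59. By estimated reads on miRNAs, the sphere library was the shallower of the 2.

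**Figure D1:**
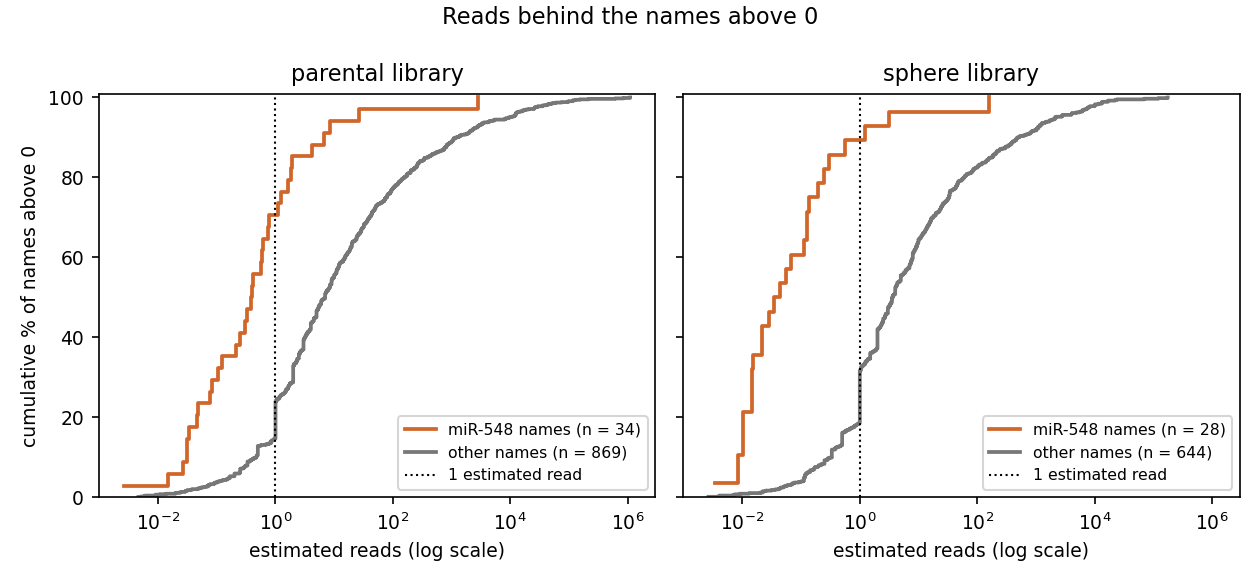
Cumulative percentage of the names above 0 (y axis) by estimated reads (x axis, log scale) in the parental library (left) and the sphere library (right), for miR-548 names (orange) and all other names (grey). The dotted line marks 1 estimated read, below which lie 70.6% and 89.3% of the detected miR-548 names, against 14.7% and 18.6% of the others.

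One member carried the family. miR-548k was at 16738 RPKM in parental cells and 1296 RPKM in spheres, which is 97.9% and 96.0% of the summed RPKM of the family. The second member, miR-548i, was 107 times lower than miR-548k in parental cells and 50.7 times lower in spheres. Among all names miR-548k ranked 62 in parental cells and 98 in spheres. Its share of the miRNA signal was 0.0631% in parental cells (95% Clopper-Pearson interval 0.0608% to 0.0654%, about 2866 reads) and 0.0235% in spheres (0.0200% to 0.0275%, about 161 reads). The intervals do not overlap. Like all intervals here they hold for counting error alone, since 1 library per group gives no measure of variation between cultures or libraries. Reads copied by PCR do not stand for separate molecules, so even counting error may be understated.

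**Figure D2:**
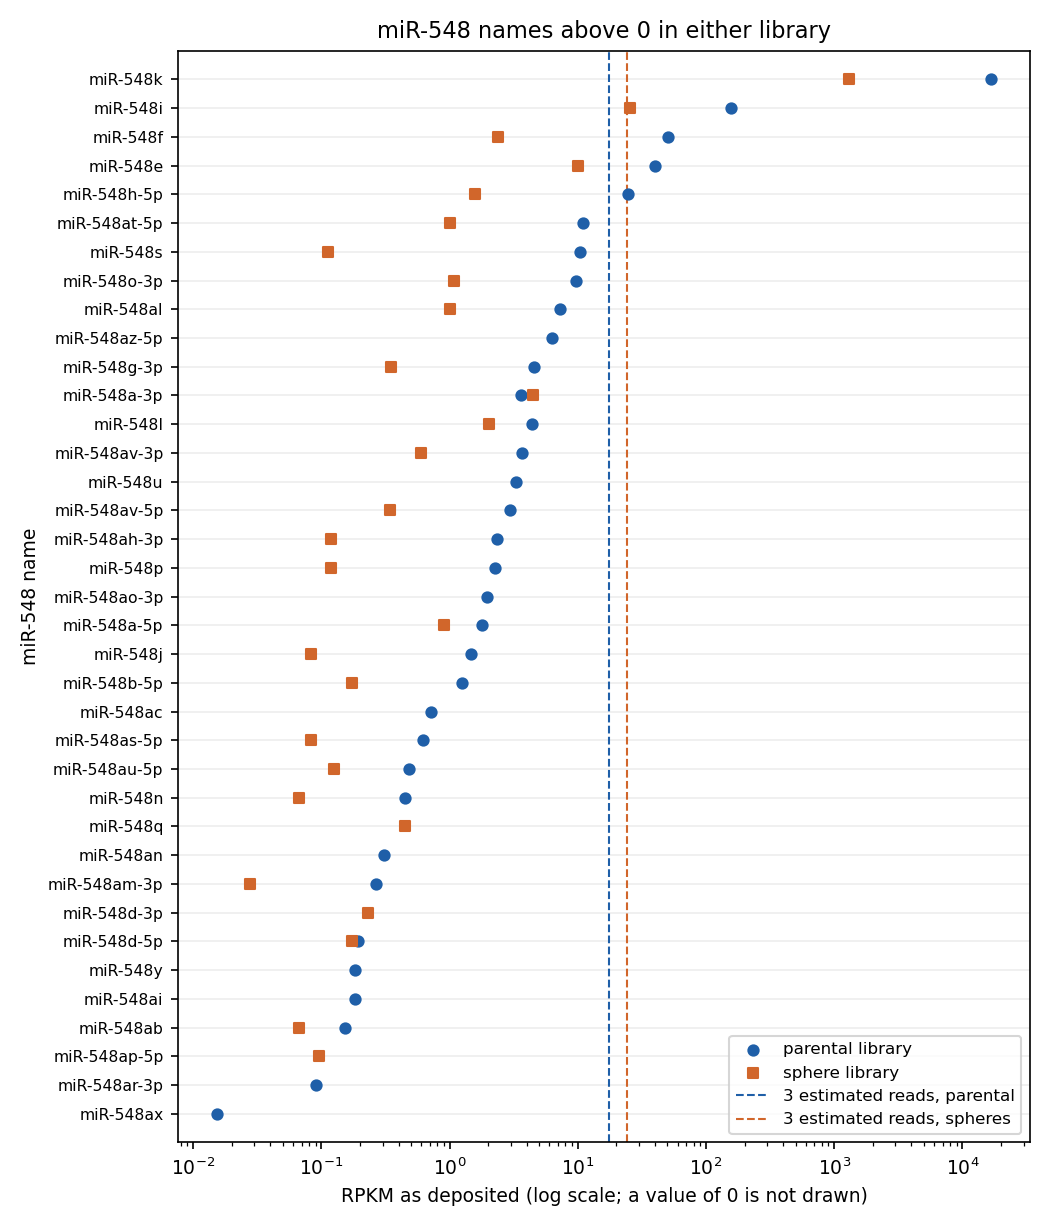
RPKM as deposited (x axis, log scale) of the 37 miR-548 names above 0 in either library, with circles for the parental and squares for the sphere library, and dashed lines at 3 estimated reads in each. miR-548k lies alone at the top in both libraries, at 16738 and 1296 RPKM, and 4 further names pass the parental line.

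The gene of miR-548k lies on chromosome 11, and the mature sequence at chr11:70283986-70284007 on the plus strand (RefSeq, GRCh38.p14). In GENCODE it is inside an intron of PPFIA1, on the same strand. PPFIA1 encodes liprin alpha, a scaffold protein of cell adhesions, and its neighbours are FADD, an adaptor of death receptors, and CTTN, an actin-binding protein. This stretch of the chromosome is often amplified in head and neck carcinoma. DNA copy number was not analysed here. Of the 5 miRNA genes annotated within 2 Mb on either side, counting its own, 4 have names in the deposited tables. Of these 4, only miR-548k and miR-3664, from an intron of SHANK2, exceeded 1 estimated read in either library. These were looked up after the values of miR-548k were known. miR-3664-3p went from 418 to 28.8 RPKM, on about 72 and 4 reads, a rescaled log2 fold of -1.51. miR-3664-5p was at 38.9 RPKM in parental cells and listed at 0 in spheres. miR-3164 was at 0 in both libraries.

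miR-548k was lower in spheres on both scales. It went from 631 to 235 rescaled RPKM, a 2.68-fold deficit (95% counting interval 2.29 to 3.16) and a log2 fold of -1.42, computed as the log2 of (rescaled RPKM + 0.5). On the deposited scale the deficit was 12.9-fold (11.0 to 15.2), or -3.69 in log2. A miRNA was counted as measured when its rescaled RPKM averaged 10 or more over both libraries, and miR-548k was the only member to do so. Of all 269 measured miRNAs, 19% were at least 2-fold lower in spheres and 23% at least 2-fold higher, so that 1 of 1 measured member was lower and none higher. On the deposited scale 79.6% of the 269 were at least 2-fold lower and 6.32% at least 2-fold higher. When low names were kept, miR-548k and miR-548f were the 2 members lower by at least 2-fold, where 8.83% of all 2038 names were, and miR-548a-3p was the 1 member higher, where 9.47% of all names were.

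Among the measured miRNAs miR-548k had the 26th lowest log2 fold, with 9.29% of them below it, and the median was 0.02. As deposited it was 27th lowest, beside a median of -2.25. At its level of expression, 44 other miRNAs had a mean within 2-fold of its own. Of these, 6 were at least 2-fold lower and 10 at least 2-fold higher, with a median log2 fold of 0.31 and a range of -1.84 to 4.22.

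**Figure D3:**
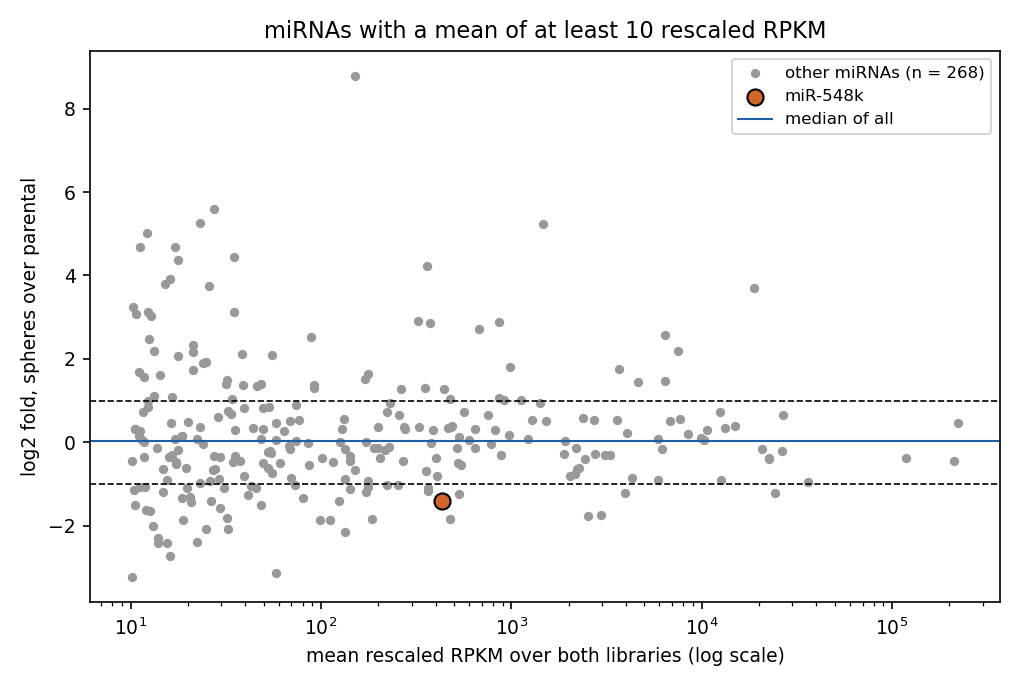
Log2 fold of rescaled RPKM in spheres over parental cells (y axis) against the mean of both libraries (x axis, log scale) for the 269 measured miRNAs, with dashed lines at 2-fold and a blue line at the median of 0.02. miR-548k, the orange point at -1.42, lies below the lower dashed line and above the lowest values at its level.

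The family sum followed miR-548k. All members together took 0.0644% of the miRNA signal in parental cells (0.0621% to 0.0668%) and 0.0245% in spheres (0.0209% to 0.0285%). That is a 2.63-fold deficit (2.25 to 3.09) after rescaling and a 12.7-fold deficit as deposited. Without miR-548k the other 71 names summed to 353 RPKM in parental cells and 53.4 RPKM in spheres, or about 60 and 7 reads. Their share was 0.00133% in parental cells and 0.000969% in spheres. The deficit was then 1.37-fold after rescaling, with a counting interval of 0.62 to 3.67 that includes 1, and 6.61-fold as deposited. The log2 fold of miR-548k was 0.97 below that of the rest, with a 95% interval of the difference from -2.15 to 0.21 (normal approximation on estimated reads). The interval includes 0.

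The other 4 members with at least 3 estimated reads, miR-548i, miR-548f, miR-548e and miR-548h-5p, were near the floor in spheres. miR-548i was at 156 RPKM in parental cells and 25.6 RPKM in spheres, on about 27 and 3 reads. It stood highest of the 4 in both libraries. Its rescaled log2 fold was -0.31, and the counting interval of the sphere-to-parental ratio ran from 0.16 to 2.50, which includes 1.

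miR-548f was at 50.3 RPKM in parental cells and 2.38 RPKM in spheres, on 8.61 and 0.30 reads, and miR-548h-5p at 24.6 and 1.58 RPKM, on 4.21 and 0.20 reads. For both the sphere value was below 1 read, and the upper bounds of their ratios, 4.21 and 10.6, lay above 1. miR-548e was at 39.9 RPKM in parental cells and 10.1 RPKM in spheres, on 6.83 and 1.25 reads, with a rescaled ratio of 1.22 (0.050 to 8.33). After rescaling, a difference of any of the 4 between the libraries was not detectable at this depth. On the deposited scale the counting interval excluded 1 for miR-548i, 6.11-fold lower in spheres (1.93 to 29.8). For miR-548e and miR-548h-5p the interval included 1. For miR-548f, 21.1-fold lower, the lower bound was 1.14. The sphere values of miR-548f and miR-548h-5p are fractions of a read, which a counting interval does not describe. Their bounds are therefore approximate, and no deficit of miR-548f is claimed. RefSeq gave no sequence under these 4 names. GENCODE holds 4 genes for miR-548i, 5 for miR-548f, 5 for miR-548h and 1 for miR-548e, so for 3 of the 4 the reads cannot be placed on 1 gene. The single miR-548e gene lies in an intron of SHOC2, which encodes a scaffold of RAS signalling.

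A further 5 members had between 1 and 3 estimated reads in parental cells. miR-548at-5p was at 11.0 RPKM there and 1.01 RPKM in spheres, miR-548s at 10.3 and 0.11, miR-548o-3p at 9.64 and 1.09, and miR-548al at 7.30 and 1.01. miR-548az-5p was at 6.33 RPKM in parental cells and listed at 0 in spheres. All 5 were below 1 read in spheres, so these values carry no direction beyond counting error. The remaining 24 detected names of the parental library lay between 0.015 and 4.51 RPKM. The 25 sphere names under 1 read lay between 0.028 and 4.49 RPKM.

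miR-548av-5p, whose 18 bases are the start of miR-548k, was at 2.96 RPKM in parental cells and 0.34 RPKM in spheres, or 0.42 and 0.034 reads. How the authors divided reads that match both names is not given in the sources used here. Among the 44 names with a RefSeq sequence, those with 2 or 3 differences from miR-548k were also low. miR-548i, miR-548f, miR-548e and miR-548h-5p had no sequence here and were not compared. miR-548ab had 0.15 and 0.067 RPKM, miR-548as-5p 0.62 and 0.083, miR-548ap-5p 0 and 0.096, and miR-548ar-5p was at 0 in both libraries. With 4 differences, miR-548l had 4.38 and 2.02 RPKM. By seed, over the names with a RefSeq sequence only, AAAGUAC held 16741 RPKM (parental) and 1296 RPKM (spheres). The 9 names with AAAGUAA held 2.20 and 0.42 RPKM. The AAAAACU seed of the 3p type held 2.59 and 0.15. The 28 names without a sequence are in none of these sums, so the sums are not totals for the family. Among those 28 is miR-548i, at 156 RPKM in parental cells and 25.6 RPKM in spheres.

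By arm, 22 names end in 5p, 22 in 3p and 28 carry no arm, miR-548k among them. The 5p names summed to 49.2 RPKM in parental cells and 4.48 in spheres, with 9 above 0 in each library. The 3p names summed to 26.0 and 6.90 RPKM, with 8 and 7 above 0. Both sums were under 9 reads in parental cells and under 1 read in spheres. The names without an arm held 99.6% and 99.2% of the family, and 277.5 and 42.0 RPKM when miR-548k was left out.

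Across the 25 members above 0 in both libraries, 24 were lower in spheres as deposited, where 86.9% of the 603 names above 0 in both were. After rescaling 18 of 25 (72%) were lower, against 45.4% of all such names. The exception on the deposited scale was miR-548a-3p, at 3.59 RPKM in parental cells and 4.49 RPKM in spheres, under 1 read in each. Few of these members exceeded 1 read, and related sequences can share reads, so the members are not independent and the count is a description only.

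Other miRNAs of transposon origin gave a scale for the family. The lists were chosen from general knowledge of miRNA origins, and each arm was counted on its own. The MADE1-derived miR-570 and miR-603 were sparse. miR-570-3p had 0.90 RPKM and miR-570-5p 0.18 RPKM in parental cells, both were listed at 0 in spheres, and miR-603 was at 0 in both. miR-570-5p shares its seed, AAGGUAA, with miR-548ag and miR-548ai. Of 6 names from LINE2 elements, an old group of retrotransposons, 5 were measured. None was higher and 2 were at least 2-fold lower in spheres, beside the 19% over all measured miRNAs. miR-28-3p went from 498 to 231 rescaled RPKM (log2 fold -1.11) and miR-151a-5p from 289 to 80.9 (-1.83). The median of the 5 was -0.77, against 0.02 for all measured miRNAs.

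Of 6 names from DNA transposons other than MADE1 (miR-340, miR-361 and miR-652), 4 were measured. miR-361-3p was higher, going from 52.9 to 132 rescaled RPKM (log2 fold 1.31, and -0.95 as deposited). None of the 4 was at least 2-fold lower, and their median was 0.23. The unmeasured miR-340-3p went from 169 RPKM in parental cells to 2.02 RPKM in spheres, on about 29 and 0.25 reads. Its rescaled log2 fold was -2.99 (-6.08 as deposited), with a fraction of a read in spheres. The unmeasured miR-652-5p went from 104 to 28.4 RPKM, a rescaled log2 fold of 0.36 (-1.85 as deposited). On the deposited scale the medians of the 2 lists were -3.03 and -2.04. miR-548k thus had a level near that of miR-28-3p in both libraries. The 4 next members lay between 4.21 and 26.8 estimated reads in parental cells, and all other MADE1-derived names were under 2 reads in both libraries.

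**Figure D4:**
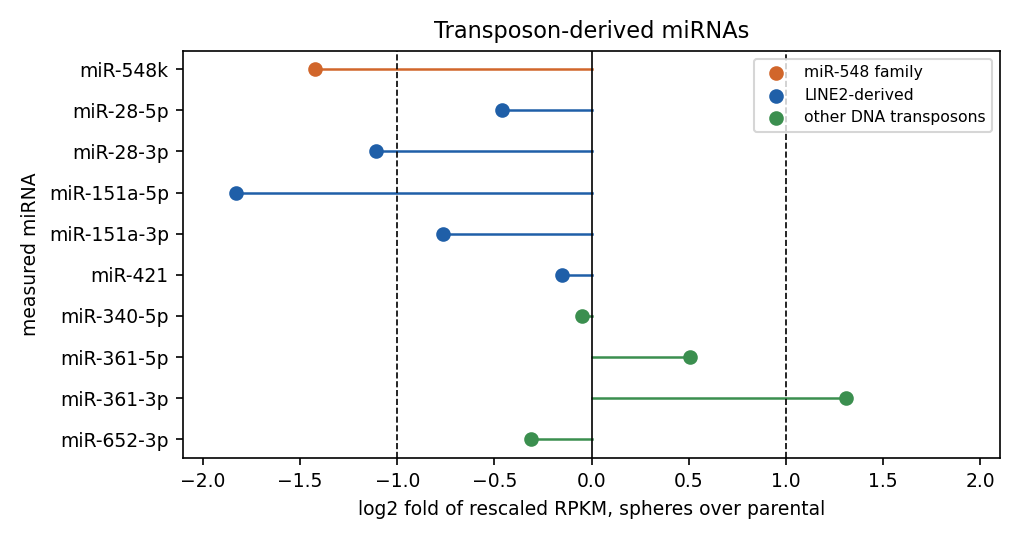
Log2 fold of rescaled RPKM in spheres over parental cells (x axis) for miR-548k (orange), the 5 measured LINE2-derived names (blue) and the 4 measured names from other DNA transposons (green), with dashed lines at 2-fold. miR-548k at -1.42 lies between miR-28-3p at -1.11 and miR-151a-5p at -1.83, and miR-361-3p at 1.31 is the one name beyond the upper line.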

How the data were processed

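Small RNA of 2 FaDu libraries was built with the TruSeq small RNA kit from 1 µg of total RNA and size fractionated, per the labels' protocols. The authors deposited 1 RPKM value per mature miRNA name and library, per the file headers, and the submitters' processing notes name hg19. Aligner, counter, annotation release and the handling of reads matching several miRNAs: not given in the sources used here. A design for counts was not used. Values were rescaled to a column sum of 1000000, and folds taken on log2(rescaled RPKM + 0.5), which understates changes of low miRNAs. Higher or lower means at least 2-fold at a mean of at least 10. Of low values (between 0.9 and 5 estimated reads) with a RefSeq length, 146 of 239 values in parental cells and 116 of 181 in spheres came out as whole reads within 0.001, and 152 and 145 values were below 1 read. This does not show that the commonest step is exactly 1 read. Members with at least 3 estimated reads in either library were to be named with values, beside those in counts of 5 or fewer; miR-548a-3p, the miR-548 names shown for their sequence, and the neighbours on chromosome 11 were named after their values were seen. Members and lists were chosen with earlier results of these data known. RefSeq (GRCh38.p14) and GENCODE 29 gave sequences and genes. The steps, in Python 3.11.15 with scipy 1.17.1, were tested on simulated whole counts. Intervals on fractions of a read were not covered by that test.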

Additional observations from a re-analysis of the deposited data

How the results depend on the processing

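The summed log2 fold of the family, -1.39, was -3.66 with RPKM as deposited, -1.71 with the upper quartile and -0.44 without miR-548k, and within counting error of its value under the trimmed mean, the median of ratios, a prior of 5 and with only the members of at least 3 reads. Without miR-548k the summed share fell to 0.00133% in parental cells and 0.000969% in spheres. With no filter on low values, 1 member was higher (miR-548a-3p) and 2 were lower (miR-548k and miR-548f), in place of 0 and 1. Asking for at least 1 estimated read left 10 names in parental cells and 3 in spheres, and asking for 3 left 5 and 2, in place of 34 and 28. miR-548k stayed at least 2-fold lower under every scaling, prior and filter tried, at -3.69 as deposited and -1.40 to -1.74 otherwise. miR-548e, at 0.22, was at -1.93 as deposited and -0.028 with the upper quartile. No setting reversed a 2-fold call. The sphere library has fewer estimated reads on miRNAs, so members under 3 reads there carry no direction after rescaling. No paired analysis was possible because each group has a single library, which also leaves no replicate to omit.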

Other observations

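Several members below 1 read had equal estimated reads within a library, to a relative tolerance of 0.001. In spheres miR-548ab and miR-548n were each at 0.0083 reads, whose inverse is 120. miR-548as-5p, miR-548j and miR-548ap-5p were each at 0.0103 reads, whose inverse is 97. miR-548at-5p and miR-548al were each at 0.125 reads in spheres, and miR-548ai and miR-548y each at 0.031 reads in parental cells, the inverses being 8 and 32. miR-548s, miR-548p and miR-548ah-3p were each at 0.0147 reads in spheres. These groups were noticed after the values were seen, and which reads lie behind them was not analysed here.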
